A study of Mus musculus with 4 samples.

Results

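Smooth muscle calcium and potassium channels were followed through 9 genes: Cacna1c, Cacna1h, Cacnb2, Cacna2d1, Kcnma1, Kcnmb1, Kcnj8, Abcc9 and Kcna5. The members are the 23 probe sets that the platform annotation pairs with exactly 1 of these symbols, out of 34945 probe sets paired with a single gene, and thus 9 of 18193 genes. The genes lie on chromosomes 6 (Cacna1c, Kcnj8, Abcc9 and Kcna5), 17 (Cacna1h), 2 (Cacnb2), 5 (Cacna2d1), 14 (Kcnma1) and 11 (Kcnmb1). A probe set is a group of probes on an Affymetrix array that together report a transcript. The tissue was the aorta of 6-week-old mice with Smad4 knocked out in smooth muscle cells (Smad4-KO) and of their wild-type littermates (WT). Smad4 joins the Smads that TGF-beta and BMP receptors activate and enters the nucleus with them. Each genotype had 2 arrays, hybridised with 400 ng of RNA, and every array pooled 3 to 5 vessels. The driver of the deletion, the part of Smad4 it removes and the strain were not stated in the labels.

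In arterial smooth muscle, calcium enters through voltage-gated channels when the membrane depolarises, and this entry sets off contraction. Potassium channels oppose it: opening them hyperpolarises the membrane, closes the calcium channels and relaxes the vessel. Large-conductance calcium-activated (BK) channels answer local calcium signals, ATP-sensitive (KATP) channels answer the metabolic state of the cell, and voltage-gated (Kv) channels answer depolarisation. Pore-forming subunits carry the ions, while auxiliary subunits set how many channels reach the membrane and how readily they open.

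Of the 9 channel genes, Kcnmb1 and Cacnb2 fell in Smad4-KO aortas. Kcnmb1, the smooth muscle beta subunit of the BK channel, fell 5.39-fold, and Cacnb2, which encodes a cytoplasmic partner of the calcium channel pore, fell 3.09-fold. The other 7 genes did not pass the test. Neither call held when the arrays were blocked in pairs of like 3' to 5' signal ratio (Kcnmb1 adjusted p = 0.0559, Cacnb2 adjusted p = 0.0894). That ratio can reflect RNA integrity, labelling or both, and the block was added after the data were seen. With the block 0 of all 13645 genes tested passed, and the 2 falls kept their size. Of the 9 genes, 2 were called lower and 0 higher, where 1.39% of the 13645 genes tested were called lower and 4.92% higher at an adjusted p of 0.05. A gene stands here for its probe set of highest mean signal, and its log2 difference is Smad4-KO minus WT from limma. That method fits a linear model to each gene and draws on all genes for the variance. An unadjusted p under 0.05 with a lower level in Smad4-KO was found for 5 of the 9, against 6.16% of all genes tested. For 7 of the 9 the higher Smad4-KO array was still below the lower WT array, against 21.4% of all genes tested. The median log2 difference of the 9 genes was -0.90, against -0.01 over all genes tested. The 9 genes were chosen with earlier results of these data known. Their shares beside all genes, here and by probe set below, are therefore a description and not a test. RNA came from whole vessels, so fewer smooth muscle cells and less of a transcript per cell cannot be told apart.

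**Figure D1:**
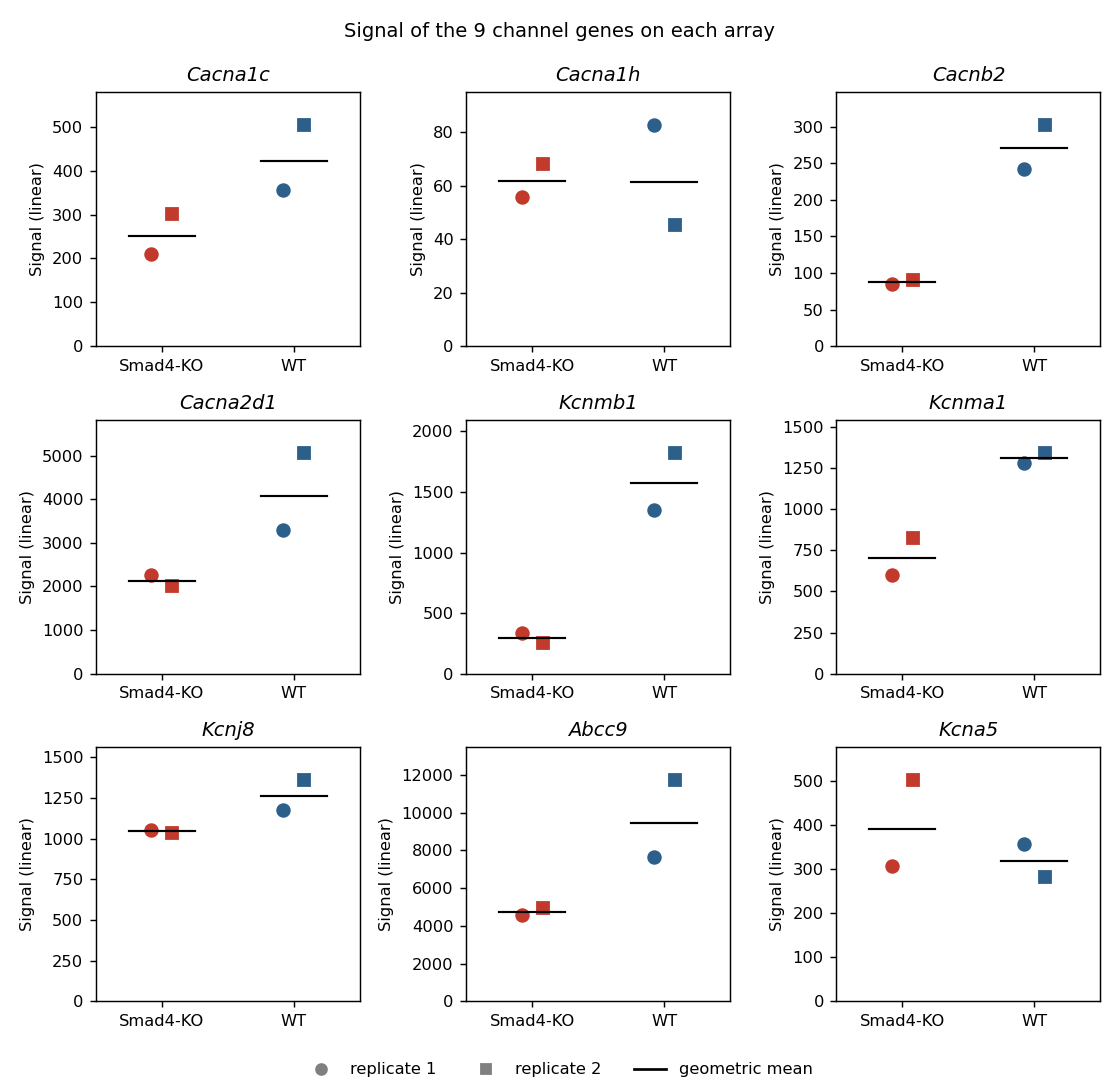
Signal (linear scale, from 0) of the probe set that stands for each of the 9 channel genes, on the 2 Smad4-KO arrays (red) and the 2 WT arrays (blue), with circles for replicate 1, squares for replicate 2 and a line at each geometric mean. Kcnmb1 and Cacnb2 show the widest gap between the genotypes relative to the spread of their replicates, and Cacna1h and Kcna5 overlap.

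A few measures of the whole arrays bear on these values. Median signals were 133 and 137 on the Smad4-KO arrays and 111 and 132 on the WT arrays. Smad4 itself had signals of 2676 and 3579.6 in Smad4-KO and 4394 and 3819 in WT on its brightest probe set. There Smad4-KO minus WT was -0.40 ± 0.32 on the log2 scale (standard error from limma, 2 arrays each, adjusted p = 0.626). Each Smad4-KO value of that probe set lay below each WT value. A dimmer Smad4 probe set read 658 and 942 in Smad4-KO and 1213 and 1778 in WT, also without overlap, with a log2 difference of -0.90. The remaining Smad4 probe set overlapped between the genotypes, with a log2 difference of -0.43. Beta-actin probe sets at the 3' and 5' ends of the transcript gave a 3' to 5' ratio of 2.83 on Smad4-KO replicate 1 and 12.8 on Smad4-KO replicate 2, and 11.4 on WT replicate 1 and 4.19 on WT replicate 2. Contractile markers of smooth muscle summed to 80992 and 84098 in Smad4-KO against 186907 and 223329 in WT, with all 12 markers tested, 6 of them called lower and 0 higher. Macrophage markers summed to 56388 and 78869 in Smad4-KO against 14271 and 9424 in WT, with 9 of 12 called higher, and neuron markers to 43173 and 32921 against 2148 and 1930, with 11 of 11 called higher. No contractile marker was below a signal of 64 on any array; of the neuron markers, 1 and 3 were below it on the WT arrays and 0 on the Smad4-KO arrays. Of the other marker lists, 1 of 6 Schwann cell markers rose and 1 fell, 1 of 6 cardiac muscle and 1 of 8 pericyte markers fell, and 0 of 7 skeletal muscle, 8 endothelial, 8 fibroblast and 6 adipocyte markers passed either way. Skeletal muscle markers summed to 14539 on Smad4-KO replicate 2, against 2045 on Smad4-KO replicate 1 and 1371 and 836 in WT. The part of these shifts in the channel values was not tested.

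The first question is how the voltage-gated calcium channel differed, beginning with its pores. Cacna1c encodes the pore of the L-type channel, the main route of calcium entry in arterial smooth muscle. Its probe set 1421297_a_at read 209 and 302 in Smad4-KO aortas and 355 and 504 in WT aortas. All Smad4-KO values lay below all WT values, and Smad4-KO minus WT was -0.75 ± 0.36 on the log2 scale (95% interval -1.66 to 0.16), which missed the threshold (adjusted p = 0.359). A second Cacna1c probe set, 1435730_at, had the same mean log2 signal over the 4 arrays to 2 decimals (8.35) and a wider gap. It read 194 and 202 in Smad4-KO and 489.7 and 589 in WT, 2.72-fold lower, with replicates close together in both genotypes. In a second fit, of the 26209 probe sets tested by themselves, its log2 difference was -1.44 ± 0.33 (95% interval -2.30 to -0.59, unadjusted p = 0.00762), which did not pass either (adjusted p = 0.141). The choice between these 2 equally bright probe sets therefore sets whether the L-type pore reads 1.68-fold or 2.72-fold lower.

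Cacna1h encodes the pore of a T-type channel, which opens at more negative voltages. Its signals were 55.9 and 68.3 in Smad4-KO and 82.8 and 45.5 in WT, so the genotypes overlapped. The log2 difference was 0.01 ± 0.40 (95% interval -0.99 to 1.01), and its sign turned under each of the 3 other scalings, quantile normalization, cyclic loess and median centring. The dimmer Cacna1h probe set, 1427607_at, read 35.2 and 15.7 in Smad4-KO and 9.9 and 4.88 in WT and fell under the filter on low signal. Of the 23 it alone read higher on each Smad4-KO array than on each WT array, at dim levels where replicates of a genotype were themselves more than 2-fold apart.

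Cacnb2 encodes a beta subunit that brings the calcium channel pore to the membrane and shifts its gating. Its signals were 85.1 and 89.9 in Smad4-KO aortas and 242 and 303 in WT aortas. Replicates lay close together within each genotype, and every Smad4-KO value was below every WT value. The log2 difference was -1.63 ± 0.31 (95% interval -2.39 to -0.86, adjusted p = 0.0427), and the 4 single-array differences ran from -1.83 to -1.43. This call lies near the threshold: it held under 6 of 14 alternatives and was lost when any single array was left out (adjusted p from 0.0828 to 0.243). The other Cacnb2 probe set, 1452476_at, read 34.3 and 4.7 in Smad4-KO and 8.55 and 69.5 in WT. Its replicates were further apart than the genotypes, and averaging it with the brighter one brought the log2 difference to -1.29 (adjusted p = 0.493).

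Cacna2d1 encodes the alpha2delta subunit, an extracellular protein that raises the number of calcium channels at the surface. Its brightest probe set, 1433643_at, read 2251 and 2001 in Smad4-KO and 3288 and 5064 in WT. A second, 1440397_at, read 398 and 392 in Smad4-KO and 673 and 869 in WT. These 2 probe sets gave nearly the same log2 difference, -0.94 and -0.95, with no overlap between the genotypes in either. For the gene the difference was -0.94 ± 0.35 (95% interval -1.82 to -0.07, unadjusted p = 0.0386), which did not pass over all genes (adjusted p = 0.222). The remaining 3 Cacna2d1 probe sets were dim, with log2 differences of -1.06, 0.11 and -0.63. Genotypes overlapped in the first and second of these. The third, with signals of 26.9 to 28.0 in Smad4-KO and 34.3 to 52.6 in WT, was left out by the filter.

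The second question is how the potassium channels differed, beginning with the BK channel. Among the member genes the widest gap was that of Kcnmb1, its beta subunit gene, and not that of its pore gene. Kcnma1 encodes the pore of the BK channel. The probe set 1428948_at read 599 and 825 in Smad4-KO aortas and 1279 and 1344 in WT aortas, with no overlap. Its log2 difference of -0.90 ± 0.32 (95% interval -1.70 to -0.09, unadjusted p = 0.0344) did not pass (adjusted p = 0.208). A second probe set, 1440728_at, read 334 and 687 in Smad4-KO and 823 and 1770.0 in WT, 2.52-fold lower without overlap. The other 3 Kcnma1 probe sets overlapped between the genotypes, with log2 differences of -0.95, -0.01 and -1.94. The last of these, 1424848_at, rests on a single reading, 4.15 on Smad4-KO replicate 1 against 175 on Smad4-KO replicate 2, and 85.2 and 126 in WT.

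Kcnmb1 encodes the beta1 subunit, which raises the calcium sensitivity of the BK channel and is known as a smooth muscle gene. Its probe set 1421400_at read 334 and 255 in Smad4-KO aortas and 1353 and 1825 in WT aortas. The lowest WT signal was thus well above the highest Smad4-KO signal. The log2 difference was -2.43 ± 0.34 (95% interval -3.27 to -1.58, adjusted p = 0.0214), the 79th lowest of 13645 genes tested, and the single-array differences ran from -2.84 to -2.02. The second probe set, 1421401_at, read 75.3 and 109 in Smad4-KO and 141 and 249 in WT, again without overlap but 2.07-fold apart (unadjusted p = 0.0668, adjusted p = 0.407). The gene's call held under 10 of 15 alternatives (adjusted p from 0.0067 to 0.127), and averaging both probe sets brought the difference to -1.74 (adjusted p = 0.0739). Without WT replicate 1 (-2.64, adjusted p = 0.0708) or WT replicate 2 (-2.21, adjusted p = 0.127) the difference kept its size and did not pass.

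Kcnj8 and Abcc9, both on chromosome 6, encode the Kir6.1 pore and the SUR2 regulatory subunit of the vascular KATP channel. Kcnj8 read 1056 and 1037 in Smad4-KO and 1177 and 1359 in WT. The genotypes did not overlap, but the log2 difference was small, -0.27 ± 0.30 (95% interval -1.01 to 0.47, adjusted p = 0.738). Abcc9 read 4554 and 4942 in Smad4-KO and 7659.7 and 11712 in WT on its brightest probe set, 1435752_s_at, whose suffix marks probes that can match several transcripts. All 3 Abcc9 probe sets read lower on each Smad4-KO array than on each WT array, with log2 differences of -0.998, -1.26 and -1.03. For the gene the difference was -0.998 ± 0.34 (95% interval -1.86 to -0.13, unadjusted p = 0.0306), which did not pass (adjusted p = 0.193). Pericyte markers, whose cells are also known for this channel, summed to 24227 and 28029 in Smad4-KO and 44270 and 55561 in WT. Most of that sum was Rgs5, the median log2 difference of the 8 markers was -0.19, 3 of them were above 0, and their part in these values was not tested. The intervals of Kcnj8 and Abcc9 overlap, and whether the pore and the regulatory subunit differed unequally was not tested.

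Kcna5 encodes Kv1.5, a voltage-gated potassium channel of vascular and atrial muscle. Its signals were 306 and 501 in Smad4-KO and 356 and 283 in WT. The Smad4-KO replicates were further apart than the genotype means, and the log2 difference of 0.30 ± 0.37 (95% interval -0.63 to 1.24) did not pass (adjusted p = 0.781). Without Smad4-KO replicate 2 it was -0.05.

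**Figure D2:**
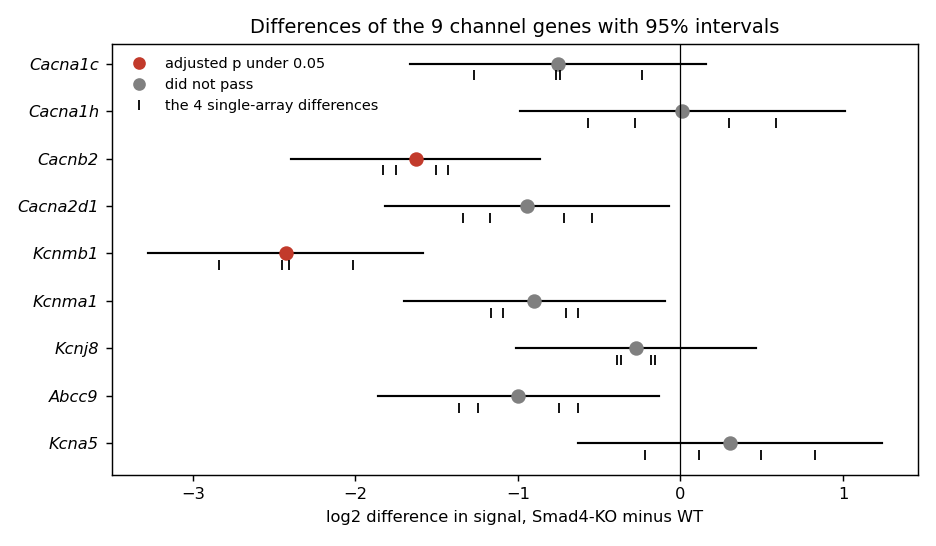
Log2 difference in signal (Smad4-KO minus WT, horizontal axis) of the 9 channel genes, with the 95% interval from limma as a line, a red dot for an adjusted p under 0.05 and a grey dot otherwise. Short ticks under each line are the 4 differences between a single Smad4-KO array and a single WT array; for Kcnmb1 they run from -2.84 to -2.02 and for Cacna1h they fall on both sides of 0.

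Read over every probe set, 14 of the 23 lay wholly lower in Smad4-KO, 1 lay wholly higher and 8 overlapped between the genotypes; over all 34945 probe sets paired with a single gene, 19.0% lay wholly lower and 21.5% wholly higher. The filter on low signal left out 3 of the 23, namely a dim probe set each of Cacna1h, Cacnb2 and Cacna2d1. Those of Cacna1h (the 1 wholly higher) and Cacna2d1 (among the 14 wholly lower) read below 64 on all 4 arrays, too dim for an order. Of the 20 tested by themselves, 0 passed in limma, where 0.782% of all probe sets tested did, and 5 were lower with an unadjusted p under 0.05, where 4.66% of all were. The lowest adjusted p among them was 0.067, that of the brighter Kcnmb1 probe set. Probe sets of a gene share their RNA and are not replicates of each other. WT replicate 2 gave the highest of the 4 signals for 19 of the 23 probe sets, against 28.6% of all probe sets. Within the pair of arrays with high 3' to 5' ratios (Smad4-KO replicate 2 minus WT replicate 1) the median log2 difference of the 9 genes was -0.63, and within the pair with low ratios (Smad4-KO replicate 1 minus WT replicate 2) it was -1.17.

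**Figure D3:**
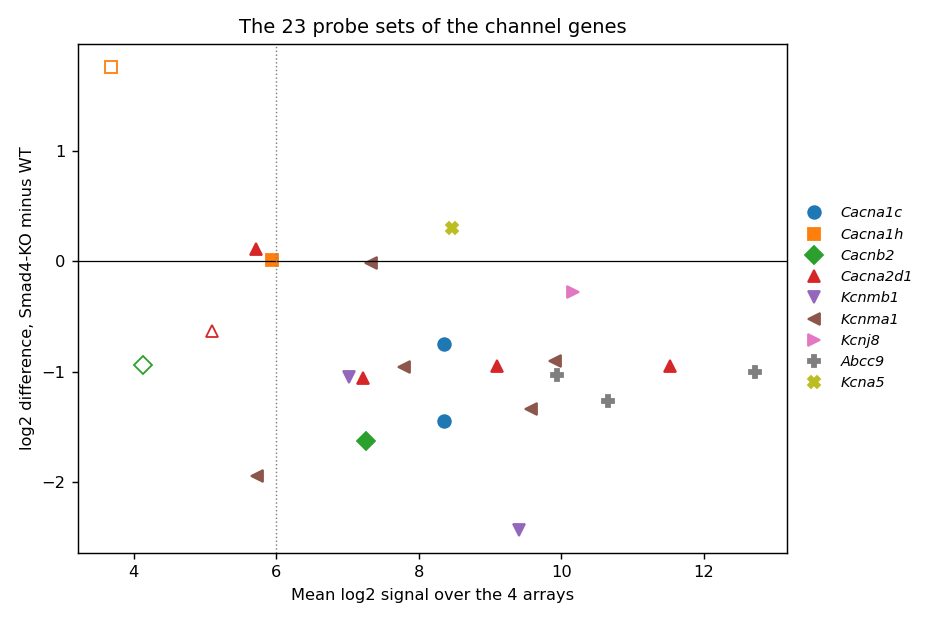
The 23 probe sets of the channel genes by mean log2 signal over the 4 arrays (horizontal) and log2 difference, Smad4-KO minus WT (vertical), with 1 symbol and colour for each gene. Open symbols are the 3 probe sets left out by the filter on low signal, and the dotted line marks a signal of 64 (6 on the log2 scale); to its right only Kcna5 lies above 0.

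The channels were also set beside the contractile markers of smooth muscle on the same arrays. The mean log2 value of the 12 contractile markers, among them Acta2, Myh11 and Cnn1, differed by -1.89 on the log2 scale between Smad4-KO and WT. Measured against that mean on each array, 8 of the 9 channel genes were higher in both Smad4-KO arrays than in both WT arrays, but so were 94.9% of all genes tested. Kcnmb1 was the exception among the 9: on this scale it stood at -2.82 and -3.41 in Smad4-KO and -2.71 and -2.43 in WT, a log2 difference of -0.54. Each Smad4-KO value of Kcnmb1 was below each WT value on this scale too, which was so for 0.601% of genes tested. The same marker mean was taken from every gene, so this share follows from the size of the fall and is not a separate result. The 12 markers themselves ranged from -0.57 (Acta2) to -2.96 (Synpo2), and the -2.43 of Kcnmb1 lies inside that range. Nearest to it were -2.42 for Myocd, -2.34 for Smtn, -2.55 for Lmod1 and -2.58 for Cnn1. Of these, Myocd did not pass in limma (adjusted p = 0.23) and read 146 and 942 on the Smad4-KO arrays.

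For 4 members the tested genes with the most similar values were sought, by the distance between log2 values centred over the 4 arrays. Kcnmb1 lay closest to Fstl3 (distance 0.12), Ppp1r12b (0.13) and Fblim1 (0.14). Ppp1r12b, for example, read 1392 and 1209 in Smad4-KO and 5922 and 8101 in WT. Cacnb2 lay closest to Fam110b (0.08), Ngef (0.11) and Rimklb (0.11), Kcnma1 to Gxylt2 (0.08), Angpt4 (0.09) and Lrrc75a (0.10), and Cacna1c to Pigb (0.02), Bcl9 (0.05) and Zfp267 (0.06). Within a wider distance of 0.25 lay 10 genes for Kcnmb1, 25 for Cacnb2, 73 for Kcnma1 and 47 for Cacna1c. On 4 arrays, nearness of this kind does not single out a gene.

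Other genes of the same channel families showed which neighbours moved. Over all genes tested, 4.92% were called higher and 1.39% lower. Counts of the lists beside these shares are a description and not a test. Among 9 other calcium-activated and KATP potassium channel genes tested, 1 rose and 0 fell. That gene, Kcnmb4, encodes the beta4 subunit of the BK channel, best known from neurons. It read 533 and 421 in Smad4-KO and 117 and 127 in WT, a log2 difference of 1.96 ± 0.31 (adjusted p = 0.0282). The beta1 and beta4 subunits of the BK channel therefore differed in opposite directions. Kcnj11, the Kir6.2 pore of other KATP channels, read 682 and 1012 in Smad4-KO and 705 and 790.2 in WT and overlapped.

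Among 19 other voltage-gated potassium channel genes tested, 3 rose and 2 fell, against 4.92% and 1.39% of all genes tested. Kcnab1, which encodes a cytoplasmic beta subunit of Kv1 channels, read 568 and 272 in Smad4-KO and 3205 and 5060.0 in WT. It fell 10.3-fold, the largest fall among the channel genes that passed the filter on low signal (-3.36 ± 0.48, adjusted p = 0.0219). Kcnh2, the pore of the ERG channel, fell 3.23-fold (-1.69 ± 0.32, adjusted p = 0.0435). Kcna1, a Kv1 pore of axons, rose 3.08-fold (1.62 ± 0.32, adjusted p = 0.0471). Kcnab2, another Kv beta subunit, read 386 and 465 in Smad4-KO and 85.5 and 52.9 in WT (adjusted p = 0.0209), at least 5.72-fold higher with signals below 64 raised to 64. Kcnq3, a subunit of the neuronal M-type potassium channel, read 557 and 1032 in Smad4-KO and 43.5 and 18.8 in WT. With the same floor it was at least 11.8-fold higher (adjusted p = 0.0215).

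The 14 other inward rectifier and two-pore-domain (K2P) potassium channel genes held 2 rises and 0 falls, against 4.92% and 1.39% of all genes tested. Kcnj10, the Kir4.1 channel of glia, read 229.9 and 213 in Smad4-KO and 61.9 and 81.5 in WT (adjusted p = 0.0456), at least 3.07-fold higher with that floor. Kcnk13, a K2P channel, read 141 and 136 in Smad4-KO and 29.8 and 33.8 in WT (adjusted p = 0.0212). Both WT signals lie under the floor: with signals below 64 raised to 64 it was at least 2.16-fold higher and the call was lost (adjusted p = 0.0735). Of the 13 other voltage-gated calcium channel genes tested, 0 passed in limma, against 6.31% of all genes tested. The closest to passing were both genes for other alpha2delta subunits. Cacna2d3 read 227 and 338 in Smad4-KO and 33.3 and 82.9 in WT (adjusted p = 0.0624). Cacna2d2 read 148 and 305 in Smad4-KO and 44.6 and 73.3 in WT (adjusted p = 0.0921). Both read higher in Smad4-KO, where Cacna2d1 read lower. On the same arrays the median log2 difference was 4.59 for neuron markers and 3.01 for macrophage markers, and their part in the rises of Kcnq3, Kcna1, Kcnab2, Kcnmb4, Kcnj10 and Kcnk13 was not tested.

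Among 15 other membrane channels of smooth muscle and their regulators, 0 rose and 2 fell, against 4.92% and 1.39% of all genes tested. Ano1, a calcium-activated chloride channel that depolarises arterial smooth muscle, read 1372 and 1248 in Smad4-KO and 3952 and 5301 in WT (-1.81 ± 0.32, adjusted p = 0.0368). Rrad, a small GTP-binding protein that binds calcium channel beta subunits and restrains L-type current, read 529 and 507 in Smad4-KO and 2198 and 1955 in WT (-2.00 ± 0.29, adjusted p = 0.0238). Over the 5 lists, the calls of Kcnj10, Kcnh2, Kcna1 and Ano1 were the least stable, holding under 4 of 14, 6 of 15, 6 of 15 and 7 of 15 alternatives. Without WT replicate 2 none of these calls held, since 0 of 13645 genes then passed in limma (1791 had an unadjusted p under 0.05).

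**Figure D4:**
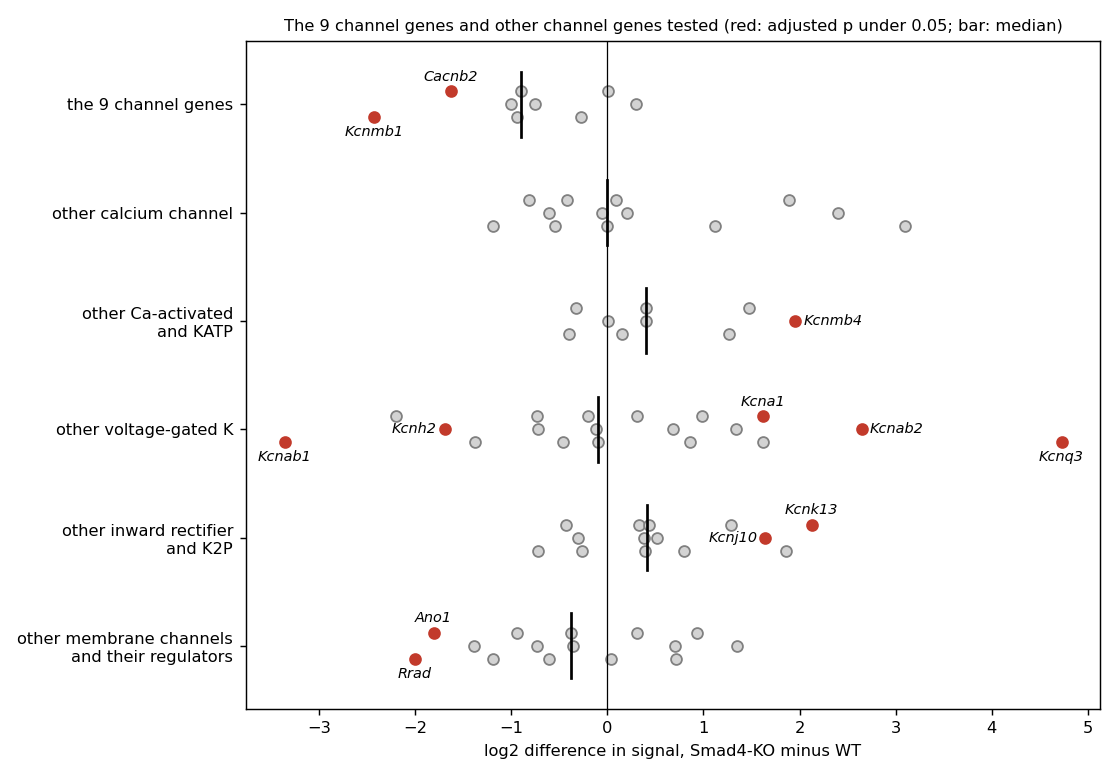
Log2 difference in signal (Smad4-KO minus WT, horizontal axis) of the 9 channel genes and of the other channel genes tested, 1 dot for each gene and 1 row for each list, with a bar at the median of the list. Red dots with names passed an adjusted p of 0.05; Kcnab1 lies furthest left at -3.36 and Kcnq3 furthest right at 4.73, and the 9 channel genes have the lowest median, -0.90. Vertical offsets within a row only separate the dots.

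The promoter sequences are shown for both genes that were called and for Abcc9, whose 3 probe sets all read lower. All probe sets of Cacna1c and Kcnj8 read lower as well, and their windows were searched but are not printed. RefSeq (GRCm38.p6) gave 11 promoter windows for 8 of the 9 genes, and the 250 bases before each transcript start were searched on both strands for 3 motifs. These were the CArG box, which binds serum response factor in contractile genes, and the letters CAGAC and GGCGC, which are known Smad binding motifs. The CArG box was in 0 of the 11 windows and in 1.5% of all 32851 windows, CAGAC in 4 of 11 and 42.2% of all, and GGCGC in 5 of 11 and 32.0% of all. In the lines below, capitals mark any of these motifs, which read GTCTG and GCGCC where the match is on the other strand. Kcnmb1 lies at chr11:33962763-33963012 (plus strand), the 2 Cacnb2 windows at chr2:14604056-14604305 and chr2:14823842-14824091 (plus strand), and Abcc9 at chr6:142702275-142702524 (minus strand).
Kcnmb1: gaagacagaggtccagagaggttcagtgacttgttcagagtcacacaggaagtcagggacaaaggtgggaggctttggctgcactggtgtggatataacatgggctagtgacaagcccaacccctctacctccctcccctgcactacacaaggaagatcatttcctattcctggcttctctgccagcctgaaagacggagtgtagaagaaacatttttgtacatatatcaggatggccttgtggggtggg
Cacnb2, first window: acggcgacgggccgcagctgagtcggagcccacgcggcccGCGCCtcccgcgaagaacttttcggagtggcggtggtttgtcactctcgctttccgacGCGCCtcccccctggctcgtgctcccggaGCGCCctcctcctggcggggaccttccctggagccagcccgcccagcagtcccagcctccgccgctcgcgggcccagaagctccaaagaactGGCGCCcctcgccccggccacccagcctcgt
Cacnb2, second window: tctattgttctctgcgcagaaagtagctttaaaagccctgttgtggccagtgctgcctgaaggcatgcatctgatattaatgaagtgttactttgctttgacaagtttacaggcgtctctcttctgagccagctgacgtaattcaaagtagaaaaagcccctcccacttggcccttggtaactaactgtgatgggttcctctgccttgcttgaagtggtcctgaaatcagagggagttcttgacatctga
Abcc9: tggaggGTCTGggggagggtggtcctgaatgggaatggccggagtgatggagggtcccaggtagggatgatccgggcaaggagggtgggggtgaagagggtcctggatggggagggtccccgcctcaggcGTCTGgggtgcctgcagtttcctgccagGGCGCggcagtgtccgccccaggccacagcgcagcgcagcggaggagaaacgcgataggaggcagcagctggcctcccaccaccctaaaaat
The windows of Kcnmb1 and of the second Cacnb2 start held 0 of the 3 motifs, while the first Cacnb2 window, with a G and C content of 73.2%, held GGCGC and the Abcc9 window held CAGAC and GGCGC. A match or its absence describes these letters alone.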

How the data were processed

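Aortic RNA of each pool was read on an Affymetrix mouse array, and arrays were grouped by their titles. The deposited table holds an intensity for every probe set, not on a log scale. The submitters' processing notes name RMA and Affymetrix Expression Console, without versions. RMA normally gives log2 values on a common distribution. Here values are linear, 253 to 324 per array are below 1, and each array has a mean of 500 once 2% of its probe sets are trimmed from either end, so each array appears to have been scaled by a single factor. Detection calls were not used here, and precision is limited by the number of arrays.

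Of 45101 probe sets, 34945 carry exactly 1 symbol in the platform annotation (18193 genes). After a log2 transform, each gene took its brightest probe set by mean log2. Genes under the 25th percentile of mean signal were dropped, leaving 13645; a second fit treated probe sets by themselves under the same filter, leaving 26209. Smad4-KO and WT were compared with limma 3.58.1 in R 4.3.3 (lmFit, eBayes, two-sided, genotype the only term). P-values were adjusted by Benjamini-Hochberg over everything tested, with a threshold of 0.05, and the error after ± is the standard error from limma. The code was tested on simulated data.

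Array numbers 1 and 2 recur in both genotypes. The labels tie them to no shared litter or day, and deviations of same-numbered arrays correlated at -0.01 over 13645 genes, so no block was used. The labels call the arrays biological replicates, so p-values measure the spread between arrays of a genotype. That spread holds differences between pools together with the unlike 3' to 5' ratios of their arrays. Alternatives were the replicate block, other scalings and filters, a floor of 64 on signal, averaging probe sets by gene, other limma settings and leaving out each array. The 9 members, the lists of related channels and the markers were chosen with earlier results of these data known. The text names all members, up to 5 genes of a list that passed (the 2 of lowest p where none did), Smad4 and the 3 nearest genes of 4 members. Kcnj11 and single contractile and pericyte markers were named beyond that rule, after their values were seen. Promoter sequences are from RefSeq (GRCm38.p6). Python 3.11.15, pandas 2.3.3, numpy 2.4.6 and matplotlib 3.10.9 made the tables and figures.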

Additional observations from a re-analysis of the deposited data

How the results depend on the processing

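The call of Kcnmb1 held under 10 of 15 alternatives, that of Cacnb2 under 6 of 14, and the other 7 members passed under 0 of theirs. Both calls, 2 members lower in all, held with quantile normalization, cyclic loess, median centring, the floor of 64, array weights and the replicate block. The replicate block, although the numbers do not pair the samples, raised the count over all genes to 1321 against 861 without it. It gave Kcnmb1 an adjusted p of 0.0067 and Cacnb2 0.037. Members called lower numbered 1 with the 50th percentile filter (7 tested) and with a trended, robust variance, and 0 with the mean of probe sets (8 tested) and with no filter; over all genes the mean of probe sets gave 518 calls and no filter 0 in limma (2788 at an unadjusted p under 0.05). A block of array pairs with like 3' to 5' ratios, added after the data were seen, gave 0 calls over all genes (2658 at an unadjusted p under 0.05), 0 among members and 0 over all probe sets (3634 at an unadjusted p under 0.05). Leaving out each array in turn leaves 1 array in a genotype, assumed to vary like the other, and gave 0 to 808 calls over all genes and 0 to 1 among members. The count over all genes was 270 without WT replicate 1 and 0 without WT replicate 2 (1791 at an unadjusted p under 0.05). Of all probe sets, 205 passed, against 0 with quantile normalization (3646 at an unadjusted p under 0.05), the floor of 64 (4210) or no filter (4090) and 0 to 139 with an array left out. Member probe sets passing numbered 0 to 1, the 1 being the dim Kcnma1 probe set 1424848_at, without Smad4-KO replicate 2. The log2 difference of Cacna1h, 0.01, became -0.11 with quantile normalization, -0.05 with cyclic loess, -0.14 with median centring, -0.14 with the floor, and -0.42 to 0.44 with an array left out. That of Kcna5, 0.30, became -0.05 to 0.66 with an array left out. Median centring moved the median of all genes to -0.16 and that of the 9 members to -1.05. Apart from the lower counts of genes tested or arrays used, the cause of these changes was not tested. Signals below 64 are too dim for an order between arrays. They include the Cacna1h probe set 1427607_at on all 4 arrays and the brighter Cacna1h probe set on 2. With 2 arrays per genotype, most members' intervals are wider than 1.5 log2 units.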
